A study of Mus musculus with 7 samples.

Results

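The lipid-handling genes of the disease-associated microglia programme were examined as 10 genes: Apoe, Lpl, Spp1, Gpnmb, Fabp5, Cst7, Lgals3, Ch25h, Soat1 and Igf1. They were taken by symbol, and each matched 1 of the 55401 gene rows of the count table. All 10 passed the filter on low counts, and the smallest count of any member in any library was 67, for Ch25h. RNA was sequenced from microglia enriched with magnetic beads against CD11b from the dorsal hippocampus of C57BL/6 mice of 6 to 8 weeks, described as male. In both groups the dorsal dentate gyrus had received AAV-RAM-Cre, whose RAM promoter limits Cre to neurons activated by an experience. In the EYFP group (4 libraries, labelled control) the Cre-dependent virus was AAV-Dio-EYFP, and in the ATG7 group (3 libraries, labelled ATG7 overexpression) it was AAV-Dio-Atg7-Flag. The viruses were thus aimed at neurons and not at microglia, and the comparison asks how their transcripts differ when an autophagy gene is overexpressed in engram neurons. The labels do not say whether each library came from 1 mouse, so the p-values measure only the spread between these libraries.

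Disease-associated microglia are a state described around amyloid plaques, during demyelination and in ageing, in which genes for lipid uptake, storage and export are induced, largely downstream of the lipid-sensing receptor TREM2. Myelin debris and dying cells bring cholesterol and fatty acids into the microglial lysosome. The cell then exports cholesterol on apolipoprotein E, stores it as cholesteryl ester, or oxidises it to signalling oxysterols. The state also includes secreted factors and lysosomal proteins that rise with it.

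Library totals ranged from 35934210 to 55217119 counts, so that 3 counts, taken as the detection floor, corresponded to 0.0543 to 0.0835 CPM (counts scaled to a common library size). Atg7 itself averaged 35.6 ± 1.68 CPM over the EYFP libraries (SD, n = 4) and 34.9 ± 2.76 CPM over the ATG7 libraries (SD, n = 3), with a fitted log2 difference of -0.03 (edgeR adjusted p = 0.939). EYFP 3 went against its label: Xist was at 938.5 CPM there and at 0.151 to 0.574 CPM in the other 6 libraries, and 4 Y-linked genes stood at 17.7% to 21.9% of their mean in those libraries. Log2 fold changes of members that rest on EYFP 3 are given with and without it. The labelled cell type was borne out by its defining markers: the 10 microglia markers summed to between 22345 and 27641 CPM, with Csf1r at 6383 ± 643 CPM (SD, n = 4) in EYFP. Choroid plexus markers summed to between 46953 and 73071 CPM, so transcripts of other cells were also present. In such mixed RNA, fewer cells of a type and less RNA per cell cannot be told apart.

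Both members that rose, Cst7 and Ch25h, are shown first with the sequence around their start sites, and Soat1, which did not pass the test, is shown for comparison. Each window holds the 250 bases before and the 50 bases after the start site, 5′ to 3′ on the gene's strand, from RefSeq on GRCm38.p6. Windows were available for 8 of the 10 members, 11 windows in all, and none for Lpl or Fabp5. Capitals mark matches to the motifs searched. The Cst7 window is chr2:150570165-150570464 on the plus strand, that of Ch25h is chr19:34475099-34475398 on the minus strand, and that of Soat1 is chr1:156474279-156474578 on the minus strand.
Cst7: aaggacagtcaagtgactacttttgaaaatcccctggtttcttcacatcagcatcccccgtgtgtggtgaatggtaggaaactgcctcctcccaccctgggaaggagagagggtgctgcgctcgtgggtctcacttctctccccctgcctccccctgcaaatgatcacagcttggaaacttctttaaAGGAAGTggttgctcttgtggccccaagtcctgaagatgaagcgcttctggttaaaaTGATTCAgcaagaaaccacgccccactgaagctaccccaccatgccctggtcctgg
Ch25h: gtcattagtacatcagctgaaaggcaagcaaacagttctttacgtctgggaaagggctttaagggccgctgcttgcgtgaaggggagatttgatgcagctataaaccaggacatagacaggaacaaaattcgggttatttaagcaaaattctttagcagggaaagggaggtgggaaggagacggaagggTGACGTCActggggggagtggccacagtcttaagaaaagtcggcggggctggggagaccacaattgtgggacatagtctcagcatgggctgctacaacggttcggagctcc
Soat1: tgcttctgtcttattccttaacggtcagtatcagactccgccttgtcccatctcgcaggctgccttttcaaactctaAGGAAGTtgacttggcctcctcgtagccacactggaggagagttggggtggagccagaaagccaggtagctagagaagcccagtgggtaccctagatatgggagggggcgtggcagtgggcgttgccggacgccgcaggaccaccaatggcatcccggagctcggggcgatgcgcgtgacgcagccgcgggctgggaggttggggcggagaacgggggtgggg
The AP-1 motif TGANTCA was found in Cst7 at positions 245 to 251 of the window, across the start site, and in 7.81% of all 32851 windows. The PU.1 core AGGAAGT was found in Cst7 at positions 188 to 194 and in Soat1 at positions 78 to 84, and in 9.35% of all windows. PU.1 is the lineage transcription factor of microglia, and its core is shared with other ETS factors. The cyclic AMP response element TGACGTCA was found in Ch25h at positions 190 to 197 and in 1.79% of all windows. None of these matches overlapped another. Members that did not pass the test also held matches: Gpnmb and Igf1 for AP-1, and Spp1 for the PU.1 core and for the core of the interferon-stimulated response element. The 3 windows held no match to the core of the interferon-stimulated response element (GAAA, 2 bases of any kind, GAAA, in 3.44% of all windows), to the STAT palindrome TTCNNNGAA (8.30%), to CACGTG (7.15%) or TCATGTG (3.77%), motifs of the MiT family of lysosomal regulators, or to the direct repeat of liver X receptors (GGTCA, 4 bases of any kind, GGTCA, in 0.0457%). A match is a stretch of letters and not a shown binding site, and the absence of one concerns these 300 bases only.

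Of the 10 members, 2 rose in ATG7 and none fell. Cst7, the lysosomal protease inhibitor cystatin F, rose 3.57-fold in mean CPM, and Ch25h, which makes 25-hydroxycholesterol from cholesterol, rose 3.00-fold (edgeR quasi-likelihood test, adjusted p = 0.0105 and 0.00982, Benjamini-Hochberg over all 19199 genes tested). Among all genes tested 0.755% passed this test in either direction, 0.688% as higher and 0.0677% as lower. The apolipoprotein, the lipase, the fatty acid binding protein and the cholesterol-esterifying enzyme did not pass, nor did the secreted factors Spp1 and Igf1. The log2 fold change was above 0 for 9 of 10 members, against 49.2% of all genes, and Igf1 was the exception. The median over the members was 0.22 on the log2 scale, against -0.0037 over all genes tested. An unadjusted p under 0.05 was found for 6 of the 10 members and for 12% of all genes. The groups did not overlap for 3 members, Cst7, Ch25h and Soat1, against 11.2% of all genes in either direction, 6.33% as higher and 4.91% as lower.

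**Figure D1:**
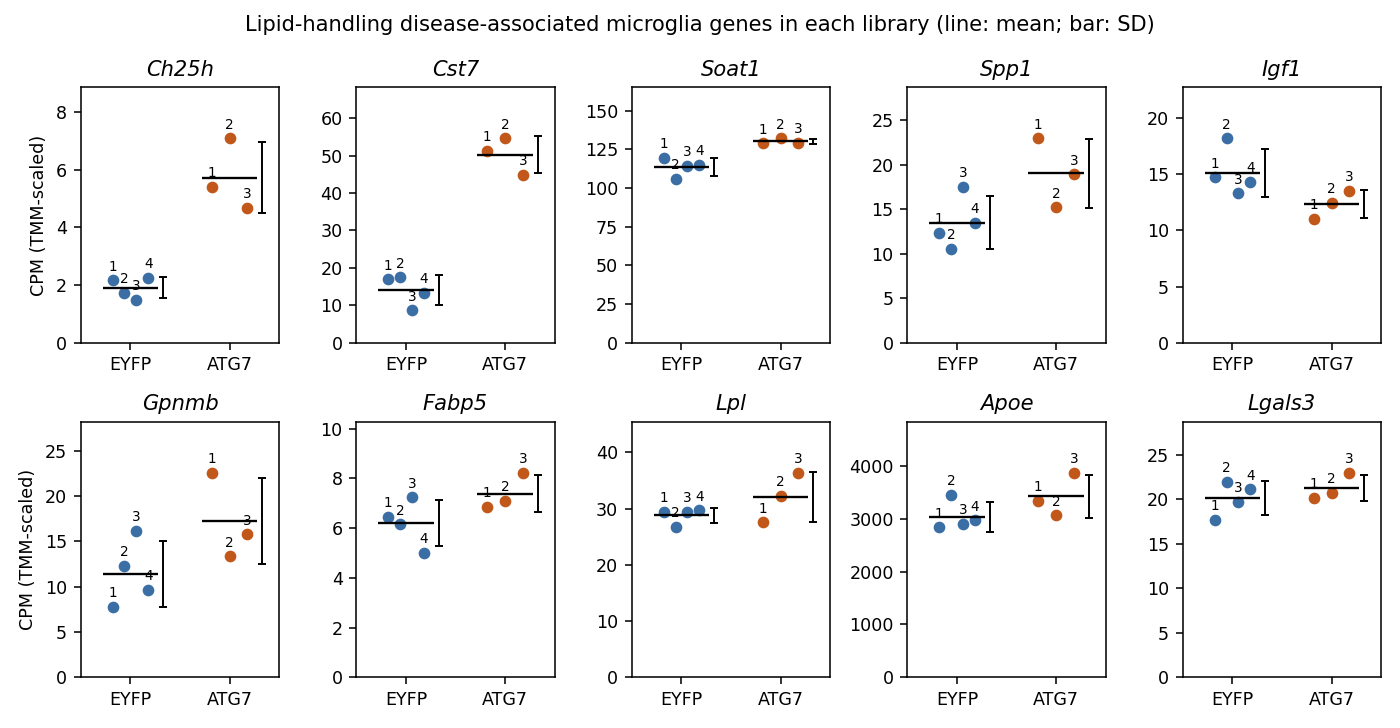
CPM, scaled by TMM factors, of each of the 10 members in 4 EYFP and 3 ATG7 libraries, with replicate numbers, the group mean as a line and the SD as a bar; each axis starts at 0. The ATG7 libraries lie between 44.9 and 54.6 CPM for Cst7 and between 4.67 and 7.08 CPM for Ch25h, above every EYFP library, while the points of 7 members overlap between groups.

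Cst7 (ENSMUSG00000068129, GRCm38 chromosome 2, 150570415 to 150578944) encodes cystatin F, which restrains cysteine cathepsins in the lysosome and is one of the genes most typical of disease-associated microglia. It stood at 16.9, 17.5, 8.62 and 13.3 CPM in EYFP 1 to 4 and at 51.3, 54.6 and 44.9 CPM in ATG7 1 to 3. The lowest ATG7 library was above the highest EYFP library, and EYFP 3 was the lowest of all. The means were 14.1 ± 4.08 CPM (SD, n = 4) and 50.3 ± 4.93 CPM (SD, n = 3), and the fitted log2 difference was 1.84 (standard error, SE, 0.212, approximate 95% interval 1.36 to 2.32). Without EYFP 3 the log2 fold change was 1.66 (edgeR adjusted p = 0.000571). Without ATG7 2 it was 1.77 (edgeR adjusted p = 0.0569), in a refit that called 28 genes in the whole table against 145. The Cst7 call was also lost with no filter (edgeR adjusted p = 0.0599) and with the replicate block (edgeR adjusted p = 0.0709). Over all 15 alternatives the change lay between 1.66 and 1.96 and passed in 12.

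Ch25h (ENSMUSG00000050370, chromosome 19, 34473778 to 34475164) encodes cholesterol 25-hydroxylase, an enzyme of the endoplasmic reticulum that is also induced by interferon and by Toll-like receptor ligands in macrophages. It stood at 2.16, 1.72, 1.49 and 2.26 CPM in EYFP 1 to 4 and at 5.40, 7.08 and 4.67 CPM in ATG7 1 to 3. Every ATG7 library was above every EYFP library, and ATG7 2 was the highest. The means were 1.91 ± 0.364 CPM (SD, n = 4) and 5.71 ± 1.24 CPM (SD, n = 3), and the fitted log2 difference was 1.59 (SE 0.210, interval 1.13 to 2.05). Without EYFP 3 it was 1.48 (edgeR adjusted p = 0.0121). Without ATG7 2 it was 1.40 (edgeR adjusted p = 0.0537), so that neither member passed in the absence of that library. In the annotation 159 exon bases of Ch25h are shared with Gm26902 on the opposite strand, which was at 0.147 to 0.624 CPM, and the strand setting of the counting is not given in the sources used here.

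Soat1 (ENSMUSG00000026600, chromosome 1, 156424525 to 156474331) encodes the acyltransferase that turns free cholesterol into cholesteryl ester for lipid droplets. It stood at 119, 106, 114 and 115 CPM in EYFP 1 to 4 and at 129, 132 and 129 CPM in ATG7 1 to 3. The groups did not overlap, and the 3 ATG7 libraries lay close together. The difference was small: 114 ± 5.60 CPM (SD, n = 4) against 130.0 ± 1.77 CPM (SD, n = 3), which is 0.20 on the log2 scale (SE 0.0676, interval 0.05 to 0.34, edgeR adjusted p = 0.272). It passed in none of the 15 alternatives.

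Apoe (ENSMUSG00000002985, chromosome 7, 19696109 to 19699188) encodes the main carrier of cholesterol between cells of the brain. It stood at 2836, 3451, 2899 and 2968 CPM in EYFP 1 to 4 and at 3343, 3065 and 3867 CPM in ATG7 1 to 3. EYFP 2 exceeded 2 of the 3 ATG7 libraries, so the groups overlapped. For Apoe the fitted log2 difference was 0.17 (SE 0.113, interval -0.08 to 0.42, edgeR adjusted p = 0.609). Astrocytes, border macrophages and choroid plexus also express Apoe. Their markers, led by Slc1a3, Mrc1 and Ttr, summed to 445 to 843, 541 to 653 and 55398 to 73071 CPM in EYFP, and to 501 to 611, 575 to 654 and 46953 to 61756 CPM in ATG7, ranges that overlapped. Their part in the level of Apoe was not tested.

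Lpl (ENSMUSG00000015568, chromosome 8, 68880491 to 68907448) encodes lipoprotein lipase, which releases fatty acids from lipoproteins at the cell surface. It stood at 29.4, 26.8, 29.4 and 29.6 CPM in EYFP 1 to 4 and at 27.6, 32.2 and 36.3 CPM in ATG7 1 to 3. ATG7 1 lay within the EYFP range, and ATG7 2 and ATG7 3 lay above it. For Lpl the fitted log2 difference was 0.15 (SE 0.0963, interval -0.06 to 0.37, edgeR adjusted p = 0.592).

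Fabp5 (ENSMUSG00000027533, chromosome 3, 10012548 to 10016607) encodes a cytosolic carrier of fatty acids. It stood at 6.45, 6.15, 7.23 and 5.01 CPM in EYFP 1 to 4 and at 6.85, 7.08 and 8.21 CPM in ATG7 1 to 3. EYFP 3 lay above 2 ATG7 libraries. For Fabp5 the fitted log2 difference was 0.25 (SE 0.150, interval -0.08 to 0.58, edgeR adjusted p = 0.570). Without EYFP 3 it was 0.33 (edgeR adjusted p = 0.448). Fabp5 has processed pseudogenes with near-identical sequence, of which Gm6166 aligned over 409 bases at 98.3% identity. Gm6166 was at no more than 0.172 CPM in any library, and reads that could not be assigned between the copies are not seen in the table.

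The interval of log2 change reached no further than 0.42 for Apoe, 0.37 for Lpl and 0.34 for Soat1. Those 3 intervals lie below the lower bounds of Cst7 and Ch25h, 1.36 and 1.13. So do those of Spp1, Fabp5, Lgals3 and Igf1, which reach 0.89, 0.58, 0.29 and -0.02. The interval of Gpnmb reaches 1.16, above the lower bound of Ch25h. Differences between genes were not tested.

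**Figure D2:**
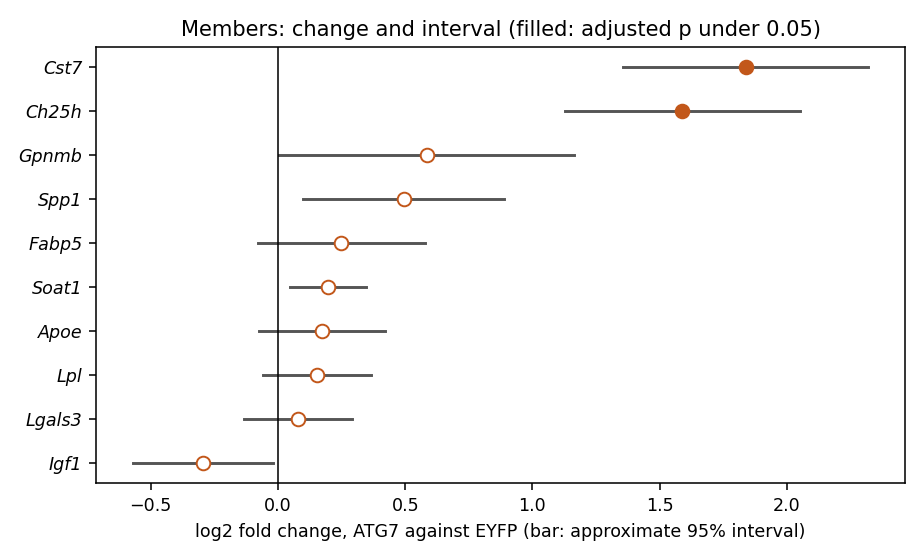
Log2 fold change of ATG7 against EYFP for each member (points, filled where the adjusted p was under 0.05) with its approximate 95% interval (bars). Cst7 and Ch25h lie at 1.84 and 1.59, the other 8 members between -0.30 and 0.58.

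Gpnmb and Lgals3 encode proteins that act at damaged or lipid-filled lysosomes. Gpnmb (ENSMUSG00000029816, chromosome 6, 49036546 to 49070929), a transmembrane glycoprotein of lysosomes and the cell surface, stood at 7.73, 12.3, 16.1 and 9.62 CPM in EYFP 1 to 4. In ATG7 1 to 3 it stood at 22.5, 13.3 and 15.8 CPM. EYFP 3 lay above 2 of the 3 ATG7 libraries, ATG7 1 lay far above the rest, and the interval was the widest among the members. For Gpnmb the fitted log2 difference was 0.58 (SE 0.256, interval 0.00333 to 1.16, edgeR adjusted p = 0.414). Without EYFP 3 it was 0.79 (edgeR adjusted p = 0.180), and without ATG7 1 it was 0.34 (edgeR adjusted p = 0.677).

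Lgals3 (ENSMUSG00000050335, chromosome 14, 47367751 to 47386160) encodes galectin-3, a sugar-binding protein recruited to ruptured lysosomes. It stood at 17.6, 22.0, 19.7 and 21.1 CPM in EYFP 1 to 4 and at 20.1, 20.7 and 22.9 CPM in ATG7 1 to 3. Of all members it showed the smallest difference, with 1 ATG7 library above the EYFP range. For Lgals3 the fitted log2 difference was 0.08 (SE 0.0967, interval -0.13 to 0.29, edgeR adjusted p = 0.814).

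Spp1 and Igf1, the members that encode secreted signals, pointed in opposite directions and neither passed. Spp1 (ENSMUSG00000029304, chromosome 5, 104435118 to 104441050) encodes osteopontin, which binds integrins and CD44. It stood at 12.3, 10.6, 17.6 and 13.5 CPM in EYFP 1 to 4 and at 23.0, 15.2 and 18.9 CPM in ATG7 1 to 3. Only EYFP 3 reached into the ATG7 range. For Spp1 the fitted log2 difference was 0.49 (SE 0.178, interval 0.10 to 0.89, edgeR adjusted p = 0.292). Without EYFP 3 it was 0.64 (edgeR adjusted p = 0.125).

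Igf1 (ENSMUSG00000020053, chromosome 10, 87858265 to 87937042) encodes insulin-like growth factor 1, a trophic factor for neurons and oligodendrocytes. It stood at 14.7, 18.2, 13.3 and 14.4 CPM in EYFP 1 to 4 and at 11.0, 12.5 and 13.5 CPM in ATG7 1 to 3. EYFP 3 and ATG7 3 were nearly level, which made the groups overlap, and EYFP 2 was the highest. For Igf1 the fitted log2 difference was -0.30 (SE 0.125, interval -0.57 to -0.02, edgeR adjusted p = 0.379). Without EYFP 3 it was -0.36 (edgeR adjusted p = 0.292). Choroid plexus markers were also highest in EYFP 2, at 73071 CPM, and their log2 fold changes were below 0 for 10 of 10 with none called. Among the ATG7 libraries the sum of these markers was highest in ATG7 1, at 61756 CPM, the library in which Igf1 was lowest. Their part in the level of Igf1 was not tested.

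Across the members, ATG7 3 was the highest library for 4, ATG7 2 for 3, ATG7 1 for 2 and EYFP 2 for 1. The highest library thus differed between members: ATG7 2 for Cst7, Ch25h and Soat1, ATG7 1 for Spp1 and Gpnmb, and ATG7 3 for Apoe, Lpl, Fabp5 and Lgals3. The lowest was EYFP 3 for Cst7 and Ch25h, and another library for each of the other 8. When EYFP 3 was left out, the groups did not overlap for 7 members (Cst7, Ch25h, Soat1, Spp1, Gpnmb, Fabp5 and Igf1) against 16.0% of all genes tested, yet Cst7 and Ch25h were still the members that passed. EYFP 3 was low for these 2 genes and high, within EYFP, for Spp1, Gpnmb and Fabp5.

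Levels between genes were compared as CPM per kilobase of annotated exon, averaged over the EYFP libraries. Exon bases were joined over all annotated transcripts of a gene, so this length can exceed that of the transcripts expressed, which lowers the value. It ran from 986 bases for Cst7 to 10478 for Lpl, and the order rests in part on it. Apoe led with 1421, which was 99.5 times the level of the next member. Cst7 followed at 14.3, Soat1 at 11.6, Lgals3 at 10.8 and Spp1 at 8.19. Lpl was at 2.75, Gpnmb at 1.76, Fabp5 at 1.74, Igf1 at 1.53 and Ch25h at 1.37. Over the 7 libraries, neighbours in this order overlapped except Apoe with Cst7 and Spp1 with Lpl. In ATG7, Cst7 reached 51.0 and Ch25h 4.12 on the same per-kilobase scale, and Apoe 1602.

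Of 24 disease-associated microglia genes outside the 10 members, 5 rose, against 0.688% of all genes tested, and none fell. Their median log2 fold change was 0.19. The groups did not overlap for 9, all higher in ATG7, against 6.33% of all genes tested as higher. Itgax, an integrin subunit of phagocytes, rose by 1.22 on the log2 scale, Clec7a, the receptor Dectin-1, by 0.85, the surface glycoprotein Cd52 by 0.73, B2m, the light chain of class I molecules, by 0.68, and the growth factor Csf1 by 0.61 (edgeR adjusted p = 0.00705, 0.0105, 0.0182, 0.0372 and 0.00705). The lipid receptor Trem2 had a log2 fold change of 0.09 and its signalling partner Tyrobp 0.20 (edgeR adjusted p = 0.793 and 0.450), both named for their role in the programme after their values were seen. The number called fell to 2 without ATG7 2 or without ATG7 3 (Csf1 and Itgax) and was 3 without EYFP 4. Without EYFP 3 it was 5, with the receptor tyrosine kinase Axl in place of B2m.

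Genes that take up, carry and store lipoprotein lipid gave no call with edgeR. Over all genes tested, 12% had an unadjusted p under 0.05 with edgeR, and DESeq2 called 3.05%. Of 23 tested genes for lipoprotein and fatty acid handling, 0 passed with edgeR or limma-voom and 1 with DESeq2, 3 had an unadjusted p under 0.05, and the median log2 fold change was -0.08. In 3 of these genes the groups did not overlap, all higher in ATG7, against 6.33% of all genes tested as higher. The smallest p was that of Plin2, which coats lipid droplets. Plin2 averaged 30.0 ± 1.04 CPM over the EYFP libraries (SD, n = 4) and 37.1 ± 1.18 CPM over the ATG7 libraries (SD, n = 3), without overlap. The fitted log2 difference was 0.31 (SE 0.0691, edgeR adjusted p = 0.0836), and Plin2 was the gene that DESeq2 called. Of 19 tested genes for cholesterol esters and oxysterols, 0 passed with edgeR or limma-voom and 1 with DESeq2, 5 had an unadjusted p under 0.05, and the median was 0.02. Without overlap between groups, 3 of them were higher in ATG7 and 2 lower, against 6.33% and 4.91% of all genes tested. Abca1, the exporter that loads cholesterol onto apolipoprotein E, had the smallest p. Its EYFP mean was 506.5 ± 26.7 CPM (SD, n = 4), its ATG7 mean 620.7 ± 51.9 CPM (SD, n = 3) and the fitted log2 difference 0.29 (edgeR adjusted p = 0.182), and it was the gene that DESeq2 called. Gpr183, the receptor for oxysterols made downstream of Ch25h, had a log2 fold change of -0.08 (edgeR adjusted p = 0.806) and was named for that role after its value was seen.

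Of 21 binding partners of the secreted and lysosomal members, 1 rose, against 0.688% of all genes tested, and none fell, with a median log2 fold change of 0.0063. It was Lgals3bp, a secreted ligand of galectin-3 that interferon also induces, with an EYFP mean of 471.8 ± 97.9 CPM (SD, n = 4), an ATG7 mean of 870.8 ± 73.9 CPM (SD, n = 3) and a fitted log2 difference of 0.88 (SE 0.148, edgeR adjusted p = 0.0228). It was not called without EYFP 4, ATG7 2 or ATG7 3. The cathepsins Ctsc and Ctsh, of the protease family that cystatin F inhibits, had log2 fold changes of 0.30 and 0.33 (edgeR adjusted p = 0.152 and 0.110), and DESeq2 called both, which is why they are named. Both were among the 4 of 21 genes of this list that were higher in ATG7 without overlap, against 6.33% of all genes tested. The receptor Igf1r, named after its value was seen, had a log2 fold change of -0.03 (edgeR adjusted p = 0.937).

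**Figure D3:**
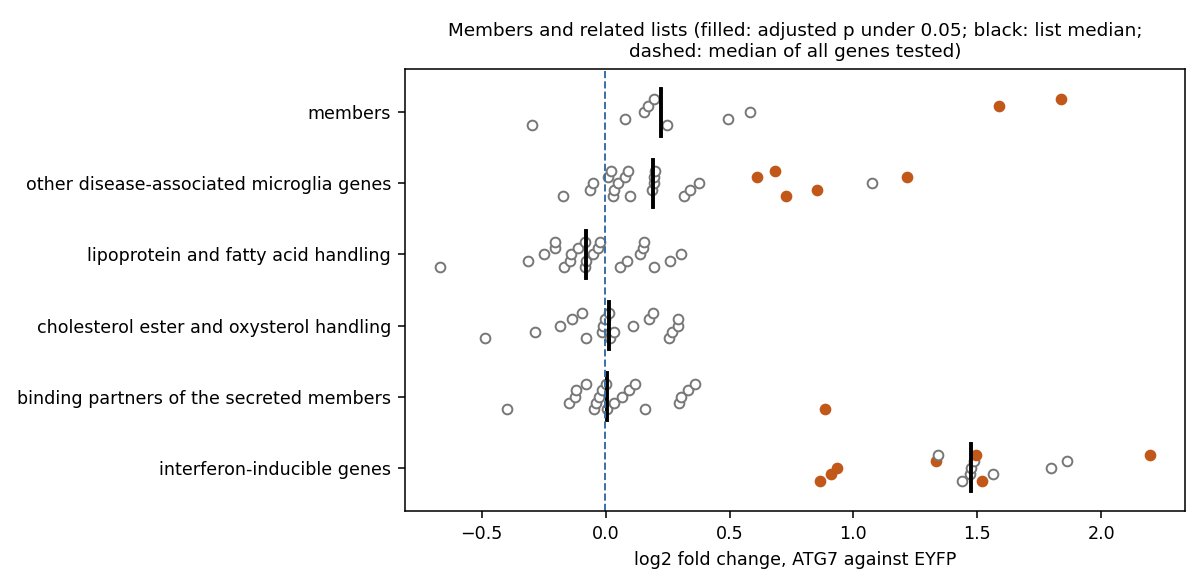
Log2 fold change of ATG7 against EYFP for the members and 5 related lists, 1 point per tested gene (filled where the adjusted p was under 0.05), with list medians as black lines and the median of all genes as a dashed line. The members' median is 0.22, that of other disease-associated microglia genes 0.19, and both lipid lists centre near 0 with no filled point.

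Ch25h is among the genes that interferon can induce, and 15 common interferon-inducible genes were therefore set beside the members. Of these, 7 rose, among them Bst2, Isg15, Ifit1, Oas3 and Usp18, and none fell, against 0.688% and 0.0677% of all genes tested. The log2 fold changes of the 15 genes ran from 0.86 for Bst2 to 2.20 for Oas3, with a median of 1.47. Their summed CPM was 267 to 529 in EYFP, lowest in EYFP 3, and 804 to 1111 in ATG7, highest in ATG7 2. EYFP 3 and ATG7 2 were also the lowest and the highest library for Cst7 and Ch25h. The order of the other libraries differed. The sum was 804 CPM in ATG7 1 and 1065 CPM in ATG7 3, while Cst7 and Ch25h were lower in ATG7 3 than in ATG7 1. Within EYFP the sum was highest in EYFP 1, Cst7 in EYFP 2 and Ch25h in EYFP 4. Whether the 2 members follow the interferon response was not tested. The number of these genes called was 15 without EYFP 3, 2 without EYFP 2, and 1 without EYFP 4, ATG7 2 or ATG7 3.

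Cytotoxic lymphocytes also express Cst7, and most of their markers did not overlap between the groups. Of 7 lymphocyte markers 6 were tested and 0 passed with edgeR, but 5 had an unadjusted p under 0.05 and did not overlap between groups, with a median log2 fold change of 1.65. Among all genes tested 12% had such a p, and 6.33% were higher in ATG7 without overlap. Their summed level was 1.24 to 4.14 CPM in EYFP and 4.80, 5.50 and 13.8 CPM in ATG7 1 to 3. Ms4a1 was at 0 in ATG7 1, and Nkg7, the marker with the highest mean over all 7 libraries, averaged 0.751 ± 0.329 CPM over the EYFP libraries (SD, n = 4) and 2.17 ± 1.30 CPM over the ATG7 libraries (SD, n = 3). ATG7 3 had the highest sum of lymphocyte markers and the lowest Cst7 and Ch25h among the ATG7 libraries. Within EYFP, the sum and Cst7 were both highest in EYFP 2 and both lowest in EYFP 3. The part of lymphocyte RNA in the rise of Cst7 was not tested.

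The summed markers of each remaining cell type overlapped between the groups. The marker named for each is the one with the highest mean over all 7 libraries, which was not the highest in both groups for every list. Border macrophage markers summed to 541 to 653 CPM in EYFP and 575 to 654 CPM in ATG7, and mural cell and fibroblast markers, led by Rgs5, to 165 to 311 CPM and 213 to 300 CPM. Monocyte and neutrophil markers summed to 55.0 to 86.2 CPM and 43.8 to 148.7 CPM, with S100a9 named and ATG7 3 the highest. Single markers of that list differed from its sum, and these were chosen after their values were seen. Plac8 was at 1.80 to 4.25 CPM in EYFP and 4.70, 11.4 and 10.3 CPM in ATG7 1 to 3, without overlap, with a fitted log2 difference of 1.45 (edgeR adjusted p = 0.128). Ly6c2 was at 1.55 to 4.40 CPM in EYFP and 3.02, 6.41 and 13.5 CPM in ATG7 1 to 3, with a fitted log2 difference of 1.47 (edgeR adjusted p = 0.330). Over the 8 markers of that list, 4 had a log2 fold change above 0, and the median was -0.0058. Ccr2, also named after its value was seen, averaged 20.7 ± 2.80 CPM in EYFP (SD, n = 4) and 20.3 ± 3.05 CPM in ATG7 (SD, n = 3). Ly6g had a log2 fold change of -0.82 (edgeR adjusted p = 0.589). None of the 8 passed the test, and the part of monocyte RNA in the rise of Cst7 and Ch25h was not tested. Endothelial markers (Slco1a4, whose mean within ATG7 was below that of Flt1) summed to 553 to 856 CPM and 613 to 1166 CPM, again highest in ATG7 3. Neuron markers (Camk2a, whose mean within ATG7 was below that of Prox1) summed to 30.4 to 157.7 CPM and 38.7 to 59.8 CPM. Oligodendrocyte lineage markers, led by Mbp, summed to 191 to 519 CPM and 222 to 337 CPM. Of the choroid plexus and astrocyte markers, Aqp1, Aldh1l1 and Slc7a10 lay lower in every ATG7 library than in any EYFP library, as did 4.91% of all genes tested. None of the 3 passed the test. ATG7 3 was thus the library with the highest sums of monocyte and neutrophil, lymphocyte and endothelial markers, and the one in which Apoe, Lpl, Fabp5 and Lgals3 were highest. The part of those transcripts in these 4 values was not tested.

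**Figure D4:**
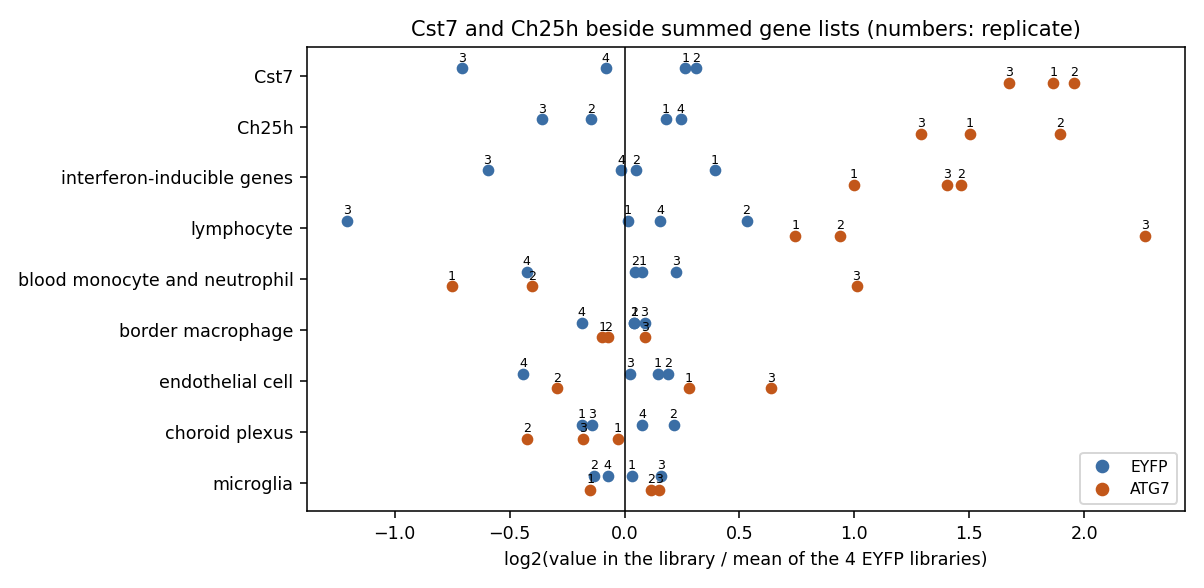
Log2 of each library's value over the mean of the 4 EYFP libraries for Cst7, Ch25h and 7 summed gene lists, 1 point per library with its replicate number. Cst7, Ch25h, the interferon-inducible genes and the lymphocyte markers do not overlap between groups, whereas the other 5 lists do.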

How the data were processed

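The authors deposited raw counts per gene for 7 libraries, a table of 55401 Ensembl identifiers. The submitters' processing notes name fastp 0.20.1, HISAT2 2.0.5 and featureCounts, with the builds mm10 and GRCm38. The annotation release, strand setting and treatment of shared reads are not given in the sources used here. All 37 mitochondrial genes were listed at 0. Columns were matched to libraries by name, and symbols, coordinates and exon lengths came from GENCODE M21 (GRCm38), which matched 55141 identifiers. Promoter windows came from RefSeq (GRCm38.p6).

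ATG7 was compared with EYFP with edgeR 4.0.16 (quasi-likelihood test, R 4.3.3), using TMM factors, filterByExpr, robust dispersions, all 7 libraries and no covariate. A gene rose or fell when its two-sided Benjamini-Hochberg adjusted p was under 0.05. SEs are the log2 fold change over the root of F, and intervals use the fit's degrees of freedom. Alternatives used DESeq2 1.42.0 and limma 3.58.1, other scalings and filters, a replicate block, and each library left out. The code was tested on simulated data. No pair of libraries of a group agreed within sampling noise. The floor covers counting error only.

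The members and lists were chosen with earlier results of these data known. The text names all members, the called genes of each list or the one with the smallest p, and the most abundant marker of each cell type; other genes were chosen after their values were seen. Some genes the rule selects are not reported here.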

Additional observations from a re-analysis of the deposited data

Results flagged for a closer look

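Of the 10 members, Lpl had 1 EYFP library set apart from the other three: EYFP 2 was at 26.8 CPM, while the others lay between 29.4 and 29.6 CPM. The gap took up 90.2% of the range of the group. Chance sets apart about 1 in 20 such groups, or 0.5 among the 10 values compared.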

How the results depend on the processing

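Of the 150 values of single members under the 15 alternatives, 145 kept direction and call and 5 kept direction but lost the call: Cst7 with no filter (adjusted p = 0.0599), and Cst7 and Ch25h both without ATG7 2 and with the replicate block. None of these 150 changed sign. With no filter, 1 member (Ch25h) and 3 interferon-inducible genes were called, against 2 and 7. DESeq2 called 9 other disease-associated genes, 1 gene of each lipid list, 3 binding partners and 15 interferon-inducible genes, and limma-voom called 15 of the last. Over all genes tested the share called was 0.9% with no filter, 3.05% with DESeq2 and 0.958% with limma-voom, against 0.755% in the main fit. Same-numbered libraries had correlations of -0.061, -0.18 and 0.066 over all genes tested, after group means were removed. Differently numbered libraries were not compared, so these values do not show whether the numbers pair the libraries. With the replicate block 0 genes passed in the whole table, hence 0 members, 0 other disease-associated genes, 0 binding partners and 0 interferon-inducible genes, while the log2 fold change was 1.87 for Cst7 (adjusted p = 0.0709) and 1.67 for Ch25h (adjusted p = 0.157). Leaving out 1 library at a time gave 0 to 2 members called and 3 to 7 members whose groups did not overlap. Over all genes tested the same refits called between 0.144% (without ATG7 2) and 1.46% (without EYFP 1), and 14% to 21.2% did not overlap. For the lists it gave 2 to 5 other disease-associated genes, 0 to 1 binding partners and 1 to 15 interferon-inducible genes, with 0 in both lipid lists. For members with low counts, such as Ch25h at 67 to 389 counts, the number of libraries and the counts both limit the precision.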
